A study of Homo sapiens with 5 samples.

Results

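Contacts of 5 small, mostly gene-rich chromosomes (16, 17, 19, 20 and 22) with the 5 large chromosomes 1 to 5 were described in Hi-C maps of RMG1, an established cell line from a human clear cell carcinoma of the ovary. Hi-C joins pieces of DNA that were near each other in the fixed nucleus and counts the joined pairs by sequencing. The members are all pairs of 1 Mb bins with 1 bin on each side, so they were chosen by position and not by signal. They form 25 pairs of chromosomes, beside 10 pairs within the small set, 10 within the large set and 208 other pairs of chromosomes 1 to 22 and X. With 299 bins on the small and 1015 on the large chromosomes they hold 303485 bin pairs, 8.34% of the 3638266 bin pairs between different chromosomes (trans) of the 2772 bins kept. The title of the series names ARID1A, condensin II and chromosomal partition as its subject.

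All groups are of the same line. The 2 ARID1A KO libraries came from cells edited at ARID1A by CRISPR, with CAPH2 wild type. The 2 CAPH2 KD libraries came from cells with a hairpin RNA against CAPH2, with ARID1A wild type. The 1 control library was made from cells that carried a control hairpin and were wild type for both genes. ARID1A binds DNA as part of BAF, a complex that remodels chromatin, and CAPH2 (NCAPH2) is a subunit of condensin II, which folds and separates chromosomes. The control shares the hairpin with the KD cells and not with the KO cells, so loss of ARID1A and the CRISPR procedure cannot be told apart. The labels do not say whether a group is 1 clone or whether replicates came from separate cultures. All p-values below therefore reflect no more than the spread among these libraries, and that spread may be technical. The 2 targeted genes could not be checked in maps of 1 Mb bins.

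Each chromosome of an interphase nucleus occupies a territory of its own, and trans contacts arise where territories meet. Small gene-rich chromosomes tend to lie towards the centre of human nuclei and to touch each other, while large and gene-poor chromosomes lie more towards the edge. Active chromatin (compartment A) and inactive chromatin (compartment B) each prefer their own kind, within and between chromosomes, and condensin II is known in flies and mammals to keep territories apart.

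The gene-rich label was checked against protein-coding genes per measured bin, counted from RefSeq genes of GRCh38.p14. Chromosomes 19, 17, 22 and 16 ranked 1 to 4 of 23, with 27.4, 15.2, 13.3 and 11.2 genes per bin. Chromosome 20 held 9.10 and ranked 7, below chromosome 1 with 9.33. Chromosomes 3, 2, 5 and 4 held 5.47, 5.31, 5.17 and 4.10 genes per bin and ranked 17, 18, 19 and 21. The label therefore fits 4 of the 5 small chromosomes, and chromosome 1 is not a gene-poor partner.

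The deposited signal was balanced within each library, and whole contacts could be recovered from it. The bins kept held 31.3 M and 32.3 M contacts (megacontacts) in the ARID1A KO libraries, 55.5 M and 84.6 M in the CAPH2 KD libraries and 47.7 M in the control. The 25 chromosome pairs held 816483 and 803835 recovered contacts in ARID1A KO, 1263321 and 1930519 in CAPH2 KD and 1071794 in the control. Single bin pairs are thinly covered, and 18.6% and 19.8% of the member bin pairs had no contact in ARID1A KO, against 10.1% and 4.51% in CAPH2 KD and 12.6% in the control. Sums over chromosomes are not limited in this way, since the control held from 13111 contacts (chromosomes 5 and 22) to 112108 (chromosomes 2 and 17) per pair.

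All values below are log2 of observed over expected signal unless another scale is named. The expectation is the product of the 2 regions' totals over the genome's total, with contacts inside a bin left out. Since these totals include contacts within a chromosome (cis), trans values lie mostly below 0. Summed over all 25 pairs, small and large chromosomes met at -0.99 and -0.91 in ARID1A KO, at -0.97 and -0.97 in CAPH2 KD, and at -1.02 in the control. All 4 KO and KD values were above the control, and the 2 KO libraries lay on both sides of the KD libraries. The median of the 25 pairs was -1.12 and -1.02 in ARID1A KO, -1.08 and -1.08 in CAPH2 KD and -1.11 in the control. Over all chromosome pairs the medians were -1.17 and -1.10, -1.08 and -1.08, and -1.17 in the same groups. The 10 pairs within the small set stood well above these, with medians of -0.19 and -0.14 in ARID1A KO, -0.02 and -0.02 in CAPH2 KD and -0.16 in the control. The 10 pairs within chromosomes 1 to 5 had medians of -1.35 and -1.31, -1.28 and -1.27, and -1.35. Small chromosomes thus met large ones at a level close to the genome's median, between that of small with small and that of large with large.

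The raw share tells of a second difference between the libraries. Of the recovered trans contacts, the 25 pairs held 11.68% (exact binomial 95% interval 11.65 to 11.70) and 11.43% (11.41 to 11.46) in ARID1A KO. They held 9.36% (9.34 to 9.37) and 9.44% (9.43 to 9.46) in CAPH2 KD, and 9.74% (9.72 to 9.76) in the control. The intervals cover counting error only. In the balanced signal the shares were 9.44% and 9.47% in ARID1A KO, 8.81% and 8.79% in CAPH2 KD, and 9.03% in the control, so much of the excess of the KO went with balancing. Bins of the small chromosomes yielded more contacts in the KO, by their recovered totals. The median recovered bin total of chromosome 19 was 1.23 and 1.18 times the library's median in ARID1A KO, 0.772 and 0.838 times in CAPH2 KD, and 0.859 times in the control. For chromosome 22 the yields were 1.15 and 1.10 in ARID1A KO, 0.749 and 0.778 in CAPH2 KD, and 0.797 in the control. Chromosomes 16, 17 and 20 were also above the control in both KO libraries, and among the large ones only chromosome 1 was, at 1.12 and 1.12 against 1.02. Balancing takes such yields out, and shares of recovered contacts keep them. Observed over expected values of recovered contacts are divided by totals of the same recovered contacts. The part of yield in the results below was not tested.

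Chromosome 17 was the small chromosome with the most contact to the large ones, at -0.71 and -0.67 in ARID1A KO, -0.68 and -0.68 in CAPH2 KD and -0.73 in the control. Chromosome 19 followed with -0.92 and -0.87 in ARID1A KO, -1.0 and -1.01 in CAPH2 KD and -1.03 in the control. Here both KO libraries lay above both KD libraries and the control. Chromosome 22 had -1.07 and -0.96, -1.09 and -1.09, and -1.12, and chromosome 20 had -1.15 and -1.03, -1.09 and -1.10, and -1.15, in the same order of groups. Chromosome 16 met the large chromosomes least, at -1.21 and -1.09 in ARID1A KO, -1.16 and -1.15 in CAPH2 KD and -1.23 in the control. For chromosomes 16 and 20 the KO libraries were on both sides of the KD libraries. Among the large partners chromosome 1 was highest, at -0.80 and -0.72 in ARID1A KO, -0.76 and -0.75 in CAPH2 KD and -0.84 in the control. Chromosome 5 was lowest in all libraries but CAPH2 KD replicate 2, where chromosome 4 was (-1.12). It stood at -1.12 and -1.06 in ARID1A KO, -1.11 and -1.11 in CAPH2 KD and -1.17 in the control.

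Among single pairs, chromosomes 1 and 17 were highest, at -0.48 and -0.43 in ARID1A KO, -0.43 and -0.43 in CAPH2 KD and -0.49 in the control. Chromosomes 3 and 19 had -0.51 and -0.50 in ARID1A KO, -0.54 and -0.56 in CAPH2 KD and -0.51 in the control. Chromosomes 2 and 17 had -0.55 and -0.52 in ARID1A KO, -0.52 and -0.52 in CAPH2 KD and -0.56 in the control. In these 3 pairs the 5 libraries lay close together, well above most other pairs. Chromosomes 4 and 17 followed with -0.78 and -0.77 in ARID1A KO, -0.79 and -0.80 in CAPH2 KD and -0.79 in the control. Chromosomes 1 and 22 came next, with -0.80 and -0.72 in ARID1A KO, -0.80 and -0.76 in CAPH2 KD and -0.87 in the control, which was the lowest library.

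**Figure D1:**
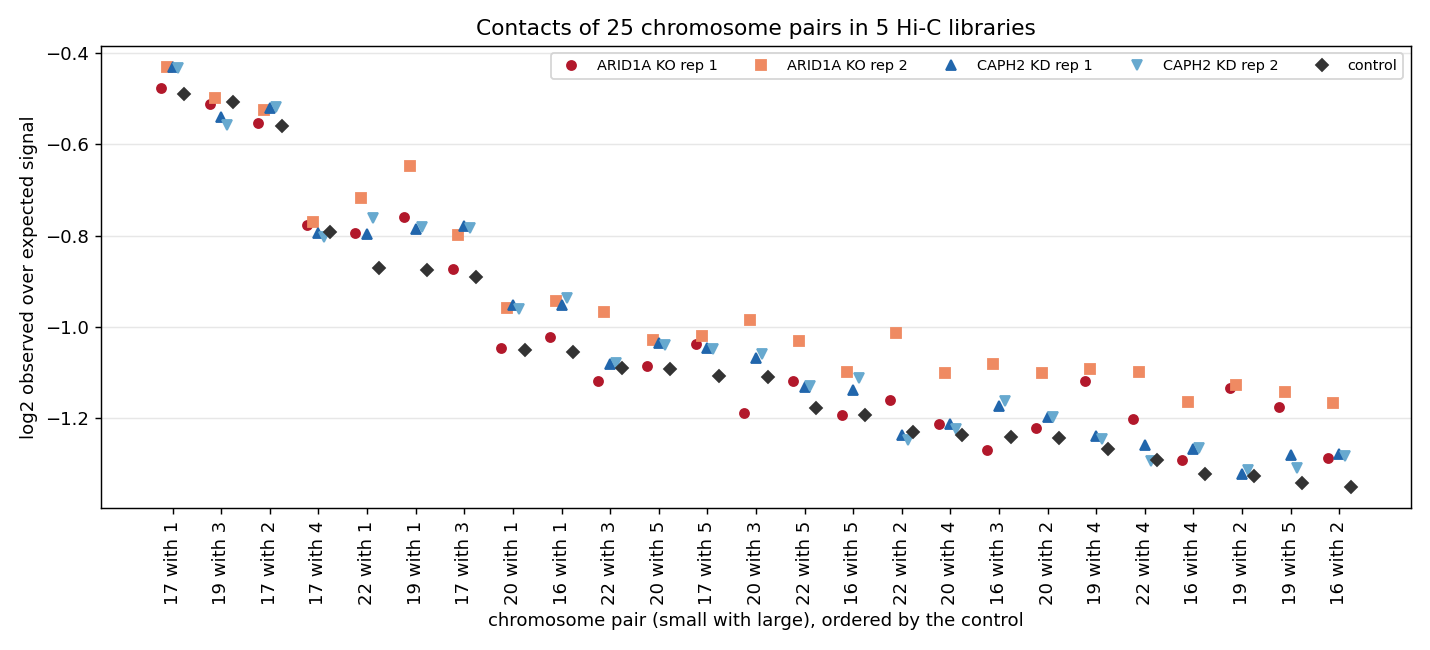
Log2 of observed over expected signal (vertical axis) of each of the 25 chromosome pairs (horizontal axis, ordered by the control), with 1 point per library. The 3 pairs on the left stand near -0.5 in all 5 libraries, and at the right end the ARID1A KO points of chromosome 19 with chromosomes 4, 2 and 5 lie above the CAPH2 KD and control points.

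The lowest pair in the control was that of chromosomes 2 and 16, with -1.29 and -1.17 in ARID1A KO, -1.28 and -1.28 in CAPH2 KD and -1.35 in the control. Chromosomes 5 and 19 had -1.17 and -1.14 in ARID1A KO, -1.28 and -1.31 in CAPH2 KD and -1.34 in the control. Chromosomes 2 and 19 had -1.13 and -1.13 in ARID1A KO, -1.32 and -1.31 in CAPH2 KD and -1.33 in the control. In both of these pairs with chromosome 19 the KO libraries were above the other 3, which lay close to each other. Chromosomes 4 and 16 had -1.29 and -1.17 in ARID1A KO, -1.27 and -1.26 in CAPH2 KD and -1.32 in the control. Chromosomes 4 and 22 had -1.20 and -1.10 in ARID1A KO, -1.26 and -1.29 in CAPH2 KD and -1.29 in the control. The same small chromosome can thus stand at both ends of the order: chromosome 19 had far more signal with chromosome 3 than with chromosomes 2 and 5, in every library. Without the bin pairs of very strong signal and their surroundings, described below, the pair of 3 and 19 stood at -1.01 in the control.

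Some of the high pairs held bin pairs of very strong signal. Over the whole genome 79 trans bin pairs had over 20 times the expected signal in all 5 libraries, and 26 of them were members: 10 between chromosomes 3 and 19, 4 each between 1 and 16 and between 1 and 17, and 8 elsewhere. By the mean over the 5 libraries, the strongest joined chr19:9000001-10000000 to chr3:49000001-50000000 (hg19, 1-based), at 145 and 208 times expected in ARID1A KO, 193 and 190 times in CAPH2 KD and 204 times in the control. It held 432 and 436 contacts in ARID1A KO, 590 and 920 in CAPH2 KD and 591 in the control. The second joined chr17:73000001-74000000 to chr1:17000001-18000000, at 157 and 116 times in ARID1A KO, 157 and 144 times in CAPH2 KD and 151 times in the control. These signals are far above the rest of the map and are present in cells of every group, and their origin was not tested. The third joined chr16:70000001-71000000 to chr1:146000001-147000000, at 116 and 124 times in ARID1A KO, 133 and 126 times in CAPH2 KD and 125 times in the control. The fourth, chr19:11000001-12000000 with chr3:10000001-11000000, stood at 98.4 and 96.8 times in ARID1A KO, 113 and 109 times in CAPH2 KD and 106 times in the control. The fifth, chr19:1000001-2000000 with chr3:9000001-10000000, stood at 91.1 and 104 times in ARID1A KO, 108 and 111 times in CAPH2 KD and 101 times in the control. Neighbouring strong bin pairs share bins and are not independent places. Genes in these bins were not named, since no annotation of hg19 was used here.

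When bin pairs with both bins within 20 Mb of a strong one were left out (3.94% of the members), chromosomes 3 and 19 stood at -0.95 and -0.93 in ARID1A KO, -0.97 and -0.99 in CAPH2 KD and -1.01 in the control. Chromosomes 4 and 17 then stood at -1.10 in the control, and chromosomes 1 and 17 and chromosomes 2 and 17 at -0.69 each. The pair of chromosomes 1 and 22 kept its -0.87, as it holds no strong bin pair. In the order of the control, the high place of chromosomes 3 and 19 and of 4 and 17 thus rested on the strong bin pairs together with their surroundings. The strong bin pairs were not left out on their own. Chromosomes 1 and 17 and 2 and 17 remained the 2 highest in the control. In KO replicate 2, at the same -0.64 to 2 decimals, chromosomes 1 and 19 came just above 2 and 17.

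Split at the longest run of unmeasured bins of each chromosome, the 25 pairs make 90 pairs of arms, of which the short arm (p) of 19 with the short arm of 3 was highest. It had 0.62 and 0.65 in ARID1A KO, 0.54 and 0.53 in CAPH2 KD and 0.68 in the control. The long arm (q) of 17 with the short arm of 4 had 0.06 and -0.03 in ARID1A KO, 0.03 and 0.02 in CAPH2 KD and 0.07 in the control. The long arm of 17 with the short arm of 1 had -0.09 and -0.06 in ARID1A KO, -0.03 and -0.04 in CAPH2 KD and -0.08 in the control. With the long arm of 2 it had -0.18 and -0.17, -0.09 and -0.10, and -0.13 in the same groups. The lowest arm pair in the control was the short arm of 17 with the long arm of 2, at -1.52 and -1.50 in ARID1A KO, -1.64 and -1.61 in CAPH2 KD and -1.70 in the control. In the other 4 libraries the short arm of 17 with the long arm of 4 was lower, at -1.64 and -1.56 in ARID1A KO and -1.74 and -1.73 in CAPH2 KD, against -1.69 in the control. The 3 highest arm pairs of chromosome 17 were all of its long arm.

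Against the control, no chromosome pair passed the test in the ARID1A KO (limma, Benjamini-Hochberg adjusted p under 0.05 over all chromosome pairs). The count was 0 of 25 among the members, where the background over all pairs was also 0%, and the lowest limma adjusted p of a member was 0.113. At an unadjusted p under 0.05 there were 5 of 25 members, against 46 of all pairs (18.2%). The median difference of the KO mean from the control was 0.08 over the members, against 0.03 over all pairs. All members share the same control and KO libraries, so the signs of their differences are not independent. The size of this median depended on the library and the scale: it was 0.025 with KO replicate 1 alone, 0.136 with KO replicate 2 alone, 0.011 with contacts inside a bin in the totals, and 0.041 both with trans totals alone and in recovered contacts. Both KO libraries were above the control in 20 of 25 members and both below it in 0. Over all pairs both were above in 120 (47.4%) and both below in 47 (18.6%).

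The 3 members with the smallest p all held chromosome 19, and none passed. Chromosomes 2 and 19 were higher in ARID1A KO by 0.20 (SE 0.022, limma adjusted p = 0.113). Chromosomes 4 and 19, at -1.12 and -1.09 in ARID1A KO, -1.24 and -1.25 in CAPH2 KD and -1.27 in the control, differed by 0.16 (SE 0.025, limma adjusted p = 0.130). Chromosomes 5 and 19 differed by 0.18 (SE 0.029, limma adjusted p = 0.130). In recovered contacts the differences were 0.13, 0.17 and 0.13 for the pairs of 19 with 2, 4 and 5. By small chromosome, the median difference over 5 pairs was 0.17 for chromosome 19, 0.11 for 22, 0.07 for 16, 0.05 for 20 and 0.04 for 17. The 5 differences of chromosome 19 were uneven, with 0.00 for its pair with chromosome 3. The yield given above was higher than in the control in both KO libraries for all 5 small chromosomes. For chromosome 17 it was 1.17 and 1.14 times in ARID1A KO, against 0.864 times in the control. A link of yield with the differences of the pairs was not tested.

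**Figure D2:**
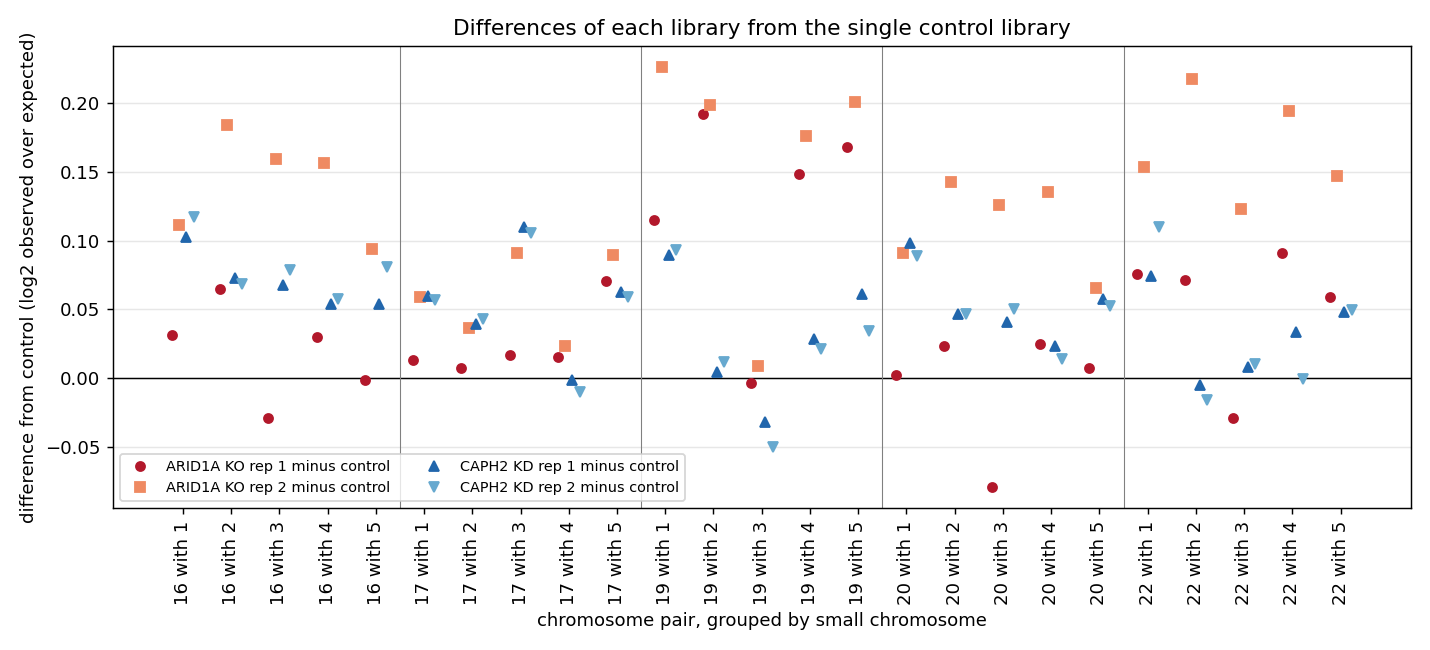
Difference of each ARID1A KO and CAPH2 KD library from the single control library in log2 of observed over expected signal (vertical axis) for the 25 chromosome pairs, grouped by small chromosome (horizontal axis). The 2 ARID1A KO libraries lie together above the CAPH2 KD libraries for chromosome 19 with 2, 4 and 5, while replicate 2 lies above replicate 1 in all 25 pairs.

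The 2 KO libraries did not agree closely with each other. Over all pairs the root mean square SD of the 2 replicates was 0.0848 for ARID1A KO and 0.00884 for CAPH2 KD. KO replicate 2 lay above replicate 1 in all 25 members, and the largest SD of a member was 0.145, for chromosomes 3 and 20 (-1.19 and -0.98). The differences of the pairs of chromosome 19 with 2, 4 and 5 were larger than the spread between their own KO libraries (SD 0.005, 0.020 and 0.023). These pairs were picked by small p, which favours a small spread, so this is no independent support. Left with KO replicate 2 alone, 23 of 25 members passed against the control, all higher, and left with KO replicate 1 alone 15 passed, 12 higher and 3 lower. Over all pairs 84.6% passed with KO replicate 2 alone (70.4% higher, 14.2% lower) and 71.9% with KO replicate 1 alone (32.4% higher, 39.5% lower). In these 2 fits the spread came from the close KD libraries alone.

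CAPH2 KD against the control likewise gave 0 of 25 members that passed (0% of all pairs), with a lowest limma adjusted p of 0.135. At an unadjusted p under 0.05 there were 0 of 25 members, against 99 of all pairs (39.1%). Both KD libraries were above the control in 21 of 25 members and below it in 3, against 246 (97.2%) and 5 (1.98%) of all pairs. The median difference of the members was 0.05, against 0.09 over all pairs. With the median of all pairs set to 0 in each library, the members' median turned to -0.04. The 3 smallest p did not pass. Chromosomes 3 and 17, at -0.78 and -0.78 in CAPH2 KD and -0.89 in the control, differed by 0.11 (SE 0.040, limma adjusted p = 0.135). Chromosomes 5 and 17, at -1.05 and -1.05 in CAPH2 KD and -1.11 in the control, differed by 0.06 (SE 0.023, limma adjusted p = 0.141). Chromosomes 1 and 16, at -0.95 and -0.94 in CAPH2 KD and -1.05 in the control, differed by 0.11 (SE 0.043, limma adjusted p = 0.146). The SEs come from the 1 fit of all libraries, so they take in the larger spread of the KO libraries. For chromosomes 3 and 17 the SD was 0.003 in CAPH2 KD and 0.052 in ARID1A KO. The count of 0 therefore does not show that KD and control are alike. Both comparisons use the same control library.

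ARID1A KO against CAPH2 KD, which does not use the control library, gave 3 of 25 members that passed, all higher in the KO. The groups differ both in the targeted gene and in the method, CRISPR or hairpin, and these cannot be told apart. Over all pairs 35 passed (13.8%), 4 higher (1.58%) and 31 lower (12.3%). Chromosome 19 with chromosome 2 was higher in the KO by 0.19 (SE 0.018, limma adjusted p = 0.0127). Chromosome 19 with chromosome 4 was higher by 0.14 (SE 0.021, limma adjusted p = 0.0322), and with chromosome 5 by 0.14 (SE 0.024, limma adjusted p = 0.0424). The values of these pairs in each library are given above, and in all 3 the groups do not overlap. The 3 calls depend on the scale. In recovered contacts the differences were 0.12, 0.15 and 0.08 for 19 with 2, 4 and 5, with limma adjusted p of 0.113, 0.0801 and 0.271, and the only member that passed was the pair of 1 and 17, lower in the KO, against 10.3% of all pairs (0.791% higher, 9.49% lower). With contacts inside a bin counted in the totals 9 members passed, 2 higher and 7 lower, against 72.3% of all pairs (1.58% higher, 70.8% lower). Of the 3 pairs, that of 2 and 19 was among the 9. With trans totals alone the pair of 5 and 19 no longer passed (limma adjusted p = 0.0503). Left with either KD library alone, 0 of 25 passed, against 7.11% of all pairs without KD replicate 1 and 6.32% without KD replicate 2.

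The median difference between KO and KD was 0.04 over the 25 members and -0.06 over all pairs. The groups did not overlap in 11 members with the KO higher and in 2 with the KO lower, against 30 (11.9%) and 168 (66.4%) of all pairs. Within the small set the median difference was -0.16 and 6 of 10 pairs passed, and within the large set it was -0.08 and 1 of 10 passed. The sign of the members' median turned to -0.03 with contacts inside a bin in the totals and to -0.01 in recovered contacts.

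Compartments were read from the control map as the sign of the first eigenvector of each chromosome. A was set as the side whose bins had more trans relative to cis contact. Higher trans values in A than in B therefore follow in part from this choice. Compartment A held 58.4% of the bins of chromosome 17, 55.9% of 22, 50.9% of 19, 38.2% of 16 and 32.2% of 20. On the large chromosomes it held 46.2% of bins of 1, 43.6% of 2, 37.2% of 4, 34.3% of 5 and 28.7% of 3. Bin pairs with both bins in A met most, at -0.26 and -0.15 in ARID1A KO, -0.17 and -0.17 in CAPH2 KD and -0.24 in the control. Bin pairs with both bins in B stood at -1.27 and -1.22 in ARID1A KO, -1.21 and -1.21 in CAPH2 KD and -1.27 in the control. A with A was thus the highest class in all 5 libraries, a direction that the choice of sign favours.

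The mixed pairs differed by direction, and in all 5 libraries B with B stood below small B with large A. Small-chromosome B with large-chromosome A had -0.95 and -0.79 in ARID1A KO, -0.88 and -0.87 in CAPH2 KD and -0.96 in the control. Small-chromosome A with large-chromosome B had -1.28 and -1.29 in ARID1A KO, -1.47 and -1.47 in CAPH2 KD and -1.45 in the control. In the KO this class stood apart from the other 3 libraries, and its 2 KO libraries lay close together (-1.28 ± 0.0055, SD, n = 2). For this single value KO against KD gave an exact two-sided permutation p of 0.333, the smallest that 2 against 2 can give.

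**Figure D3:**
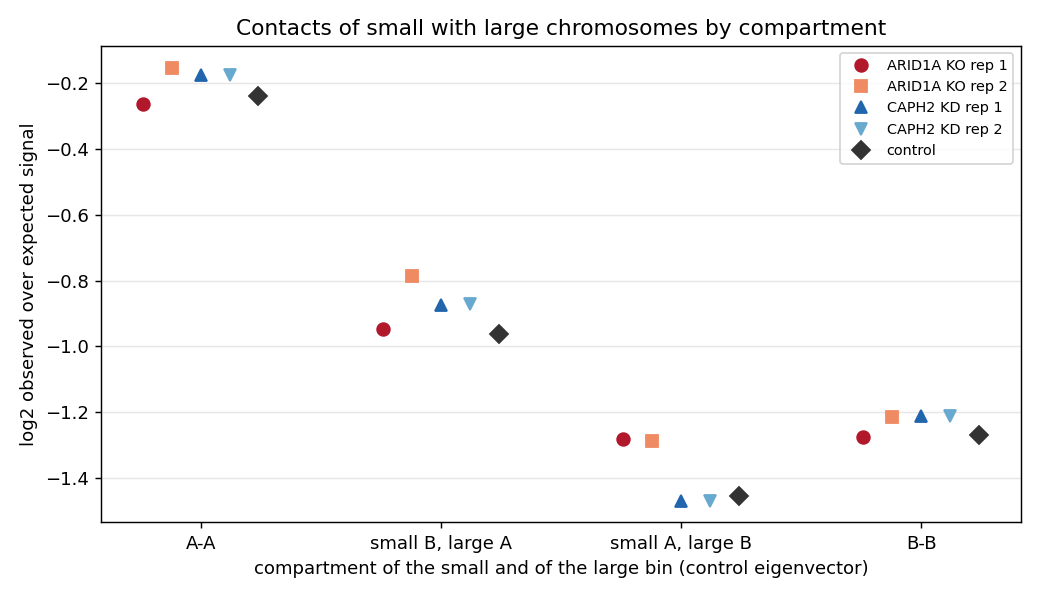
Log2 of observed over expected signal (vertical axis) of the 25 chromosome pairs together, for bin pairs sorted by the compartment of the small-chromosome and of the large-chromosome bin in the control (horizontal axis), with 1 point per library. Only in the class of small A with large B do both ARID1A KO libraries (-1.28 and -1.29) lie above all of the other libraries (-1.47 to -1.45).

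The higher KO level of small A with large B was seen in each chromosome pair. Counted after the class values were seen, both KO libraries were above the control in 25 of 25 pairs, with a median difference of 0.17. Over the 506 A with B classes of all pairs, both were above in 338 (66.8%), with a median difference of 0.09. Both KO libraries were above both KD libraries in 25 of 25 pairs, with a median difference of 0.20, against 185 of 506 (36.6%) and a median of 0.01. CAPH2 KD was above the control in 7 pairs and below it in 15, against 436 (86.2%) and 38 (7.51%) of 506. In recovered contacts the KO was above the control in 20 pairs and below it in 1, with a median difference of 0.09, and above the KD in 19 and below it in 0. Over the 506 classes in recovered contacts the KO was above the control in 65.4% and below it in 11.9%, with a median of 0.08, and above the KD in 35.8% and below it in 29.1%. For A with A the scale decided the direction. There both KO libraries were above the control in 7 pairs and below in 1 in the balanced signal (28.9% and 19% of all pairs), but above in 0 and below in 22 in recovered contacts (2.77% and 77.5% of all pairs).

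A contrast of like with unlike took the mean of A with A and B with B minus the pooled value of mixed bin pairs. This contrast was 0.36 and 0.37 in ARID1A KO, 0.50 and 0.49 in CAPH2 KD and 0.47 in the control. It was smaller in both KO libraries than in the other 3. Against the control the KO mean differed by 0.17 for small A with large B and by 0.10 for small B with large A, but by 0.03 for A with A and 0.02 for B with B. In recovered contacts A with A differed by -0.163, so which classes carried the smaller contrast depended on the scale. The exact two-sided permutation p of KO against KD was again 0.333, the smallest possible. The difference from the control was -0.11 in the balanced signal, -0.13 in recovered contacts and -0.22 between the outer 20% of bins. The contrast over all other trans bin pairs was 0.40 and 0.44 in ARID1A KO, 0.55 and 0.56 in CAPH2 KD and 0.51 in the control, so the order of the groups was the same there.

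By bins of the large chromosomes, the median value with the 5 small chromosomes was -1.17 and -1.08 in ARID1A KO, -1.17 and -1.17 in CAPH2 KD and -1.21 in the control (1015 bins). The bins followed the control eigenvector, whose sign was set by trans contact, so the direction of this trend is not an independent result. In the quintile of bins most in B the median was -1.51 and -1.52 in ARID1A KO, -1.59 and -1.58 in CAPH2 KD and -1.63 in the control. In the quintile most in A it was -0.53 and -0.41 in ARID1A KO, -0.47 and -0.48 in CAPH2 KD and -0.55 in the control. Across the 1015 bins Pearson's r with the eigenvector was 0.71 and 0.76 in ARID1A KO, 0.71 and 0.71 in CAPH2 KD and 0.70 in the control. Across the 299 small-chromosome bins, by their contact with chromosomes 1 to 5, r was lower, at 0.56 and 0.53, 0.41 and 0.42, and 0.46. Bins of 1 library share its depth and neighbouring bins are not independent, so these are descriptions.

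On the large chromosomes the values also changed with distance from the chromosome end, which was not separated from compartment. Small-chromosome bins changed less, with control medians of -1.05 under 5 Mb, -1.15 at 5 to 10 Mb and -1.13 at 20 to 40 Mb. Large-chromosome bins under 5 Mb from an end had medians of -0.49 and -0.54 in ARID1A KO, -0.41 and -0.42 in CAPH2 KD and -0.47 in the control (50 bins). At 5 to 10 Mb the medians were -0.80 and -0.68, -0.82 and -0.82, and -0.84 in the same groups. From 20 to 40 Mb they were -1.22 and -1.16 in ARID1A KO, -1.31 and -1.30 in CAPH2 KD and -1.30 in the control (200 bins). Beyond 40 Mb, where 616 of the 1015 bins lie, they were not lower still, at -1.22 and -1.11 in ARID1A KO, -1.23 and -1.24 in CAPH2 KD and -1.28 in the control. Near the ends the KO libraries were thus the lowest of the 5, and from 5 Mb inwards the highest. Among bin pairs, ends (within 5 Mb) with ends had 0.02 and -0.01 in ARID1A KO, 0.07 and 0.06 in CAPH2 KD and 0.02 in the control. Bins within 5 Mb of the longest unmeasured run, which in most chromosomes spans the centromere, met each other at -0.59 and -0.19 in ARID1A KO, -0.11 and -0.14 in CAPH2 KD and -0.44 in the control. The KO libraries lay on both sides of the control there, and both KD libraries above it. Bins of neither kind met at -1.02 and -0.94, -1.01 and -1.01, and -1.06.

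**Figure D4:**
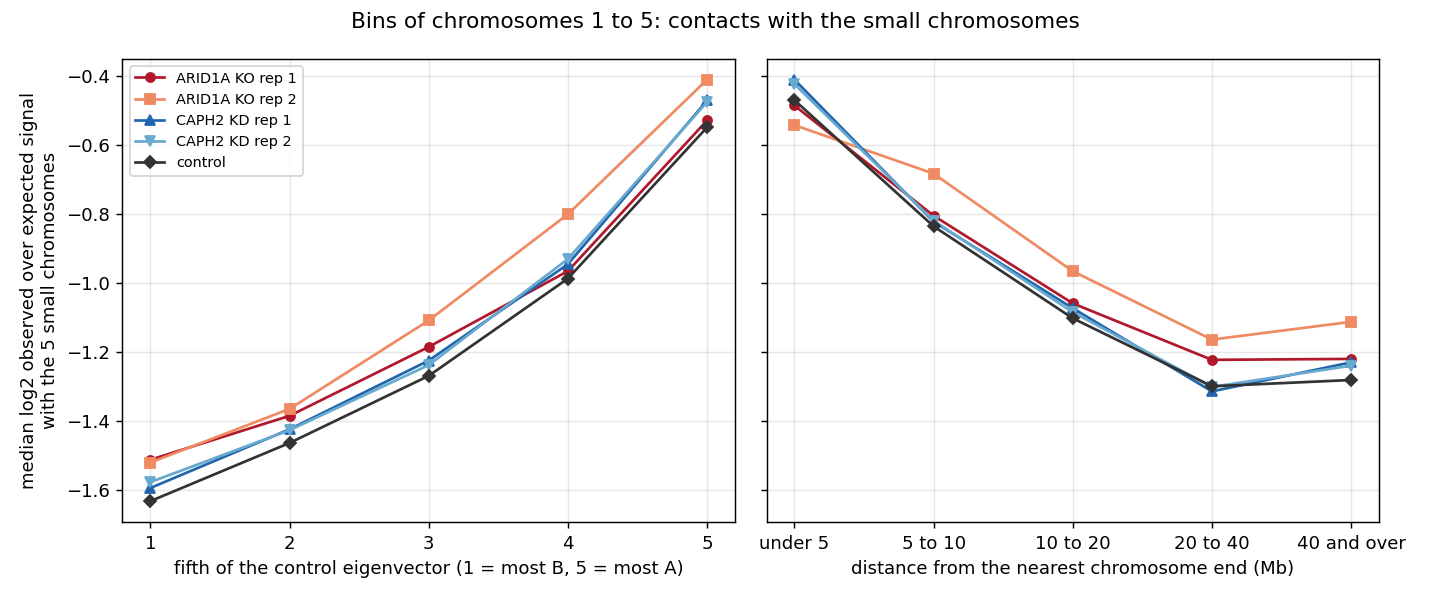
Median log2 of observed over expected signal with the 5 small chromosomes (vertical axis) of the 1015 bins of chromosomes 1 to 5, by quintile of the control eigenvector (left) and by distance in Mb from the nearest chromosome end (right), with 1 line per library. In all 5 libraries the value climbs towards compartment A and, within 40 Mb of an end, towards that end, and the lines of both ARID1A KO replicates lie above the control except under 5 Mb from an end.

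The large-chromosome bin with the most small-chromosome contact in the control was chr3:49000001-50000000, at 0.86 and 1.16 in ARID1A KO, 1.18 and 1.20 in CAPH2 KD and 1.20 in the control. Without the strong bin pairs, here and below with the 20 Mb around them, it stood at 0.17 in the control. The end of the short arm of chromosome 4, chr4:1-1000000, had 0.74 and 0.87 in ARID1A KO, 0.98 and 0.98 in CAPH2 KD and 0.96 in the control, and 0.86 in the control without strong bin pairs. Both KO libraries were below the other 3 there. The third, chr3:9000001-10000000, had 0.66 and 0.70 in ARID1A KO, 0.68 and 0.67 in CAPH2 KD and 0.74 in the control, and -0.02 in the control without strong bin pairs. The lowest in the control was chr2:147000001-148000000, with -1.92 and -1.92 in ARID1A KO, -2.0 and -1.98 in CAPH2 KD and -2.11 in the control. The next lowest were the bin of chromosome 3 that starts at 164000001 (control -2.07) and chr1:194000001-195000000 (control -2.06). The 3 highest bins were in compartment A, and the 3 lowest were in B and over 30 Mb from an end.

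Both KO libraries were above the control in 602 of the 1015 large-chromosome bins and below it in 87, against 54.6% and 11.4% of the 2473 bins outside the small set. Both KD libraries were above the control in 589 and below it in 221, against 66.9% and 16.5%. The KO was above the KD without overlap in 412 and below it in 157, against 31.9% and 23.6%. No large-chromosome bin passed the test in any comparison (limma adjusted p under 0.05). This was 0 of 1015 for KO against control, KD against control and KO against KD, with a background of 0% of 2473 bins in each. At an unadjusted p under 0.05 there were 124, 36 and 181 of the 1015 bins in these comparisons, against 293 (11.8%), 121 (4.89%) and 497 (20.1%) of 2473. The smallest p for KO against control were at chr3:27000001-28000000, chr4:112000001-113000000 and chr5:105000001-106000000, all in B, with differences of 0.37, 0.37 and 0.36 (limma adjusted p = 0.382 each). For example, chr4:112000001-113000000 had -1.22 and -1.17 in ARID1A KO, -1.45 and -1.41 in CAPH2 KD and -1.56 in the control. For KD against control they were at chr1:37000001-38000000, chr4:46000001-47000000 and chr1:35000001-36000000, with 0.32, 0.32 and 0.31 (limma adjusted p = 0.794 each). For KO against KD they were at chr4:165000001-166000000, chr5:154000001-155000000 and chr2:153000001-154000000, all in B, with 0.33, 0.36 and 0.35 (lowest limma adjusted p = 0.134). With trans totals alone in the expectation 119 bins passed for KO against KD, 112 of them higher, against 10.6% of 2473 (8.49% higher, 2.14% lower). In recovered contacts 123 passed, 119 of them lower, against 16.6% (0.404% higher, 16.2% lower), so the direction of this comparison turned on the scale.

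On the small side, the bins with the most contact to chromosomes 1 to 5 in the control were on the long arm of chromosome 17. The highest, chr17:52000001-53000000, had -0.30 and -0.28 in ARID1A KO, -0.15 and -0.17 in CAPH2 KD and -0.24 in the control, and -0.69 in the control without strong bin pairs. It is a B bin, and both KO libraries were below both KD libraries. The next were chr17:53000001-54000000 and chr17:46000001-47000000, at -0.27 and -0.30 in the control. The lowest in the control was chr19:57000001-58000000, with -1.59 and -1.54 in ARID1A KO, -1.57 and -1.59 in CAPH2 KD and -1.71 in the control. Next came chr17:6000001-7000000 and chr17:14000001-15000000 on the short arm, at -1.65 and -1.64 in the control.

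Of the 299 small-chromosome bins, 0 passed in KO against control and 0 in KD against control (0% of 1757 bins in both). At an unadjusted p under 0.05 these were 62 and 15, against 234 (13.3%) and 337 (19.2%) of 1757. Both KO libraries were above the control in 196 of the 299 bins and below it in 18, against 46.6% and 21.6% of 1757. Both KD libraries were above it in 235 and below it in 26, against 92.8% and 2.68%. The smallest p for KO against control were 3 B bins of chromosome 19. The bin chr19:37000001-38000000 had -1.15 and -1.17 in ARID1A KO, -1.29 and -1.31 in CAPH2 KD and -1.41 in the control, a difference of 0.25 from the control (limma adjusted p = 0.240). The bins chr19:56000001-57000000 and chr19:54000001-55000000 differed by 0.27 and 0.29 (limma adjusted p = 0.240 and 0.262). The difference was spread over chromosome 19, where in compartment A both KO libraries were above the control in 26 of its 27 bins and in compartment B in 19 of 26, against 46.6% of 1757 bins. The A bins of chromosomes 16, 17, 20 and 22 were similar, with 26 of 29, 39 of 45, 15 of 19 and 15 of 19. In their B bins it was 18 of 47, 9 of 32, 17 of 40 and 12 of 15. In recovered contacts the median difference of the A bins of chromosome 19 was 0.02, against 0.14 in the balanced signal.

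For KO against KD, 4 of 299 bins passed, 1 higher and 3 lower, against 105 of 1757 (5.98%), 1 higher (0.0569%) and 104 lower (5.92%). The higher one, chr19:48000001-49000000, is an A bin with -0.74 and -0.73 in ARID1A KO, -0.96 and -0.92 in CAPH2 KD and -0.93 in the control (0.21, SE 0.034, limma adjusted p = 0.0464). The 3 lower ones lie within 4 Mb of each other on the long arm of chromosome 16, all in B, and are not independent. The bin chr16:63000001-64000000 had -1.61 and -1.57 in ARID1A KO, -1.35 and -1.35 in CAPH2 KD and -1.54 in the control (-0.25, SE 0.033, limma adjusted p = 0.0411). The bin chr16:61000001-62000000 had -1.54 and -1.49 in ARID1A KO, -1.28 and -1.30 in CAPH2 KD and -1.51 in the control (-0.23, limma adjusted p = 0.0421). The third, chr16:64000001-65000000, differed by -0.20 (limma adjusted p = 0.0499). These 3 bins also had the smallest p for KD against control, where they were higher in the KD by 0.20, 0.22 and 0.18 without passing (limma adjusted p = 0.255 each). In recovered contacts 0 of the 4 passed. Over the 299 bins the groups did not overlap in 110 with the KO higher and in 48 with the KO lower, against 11.4% and 53.2% of 1757.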

How the data were processed

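The data are 5 in situ Hi-C libraries of RMG1 cells, grouped by the labels. Bowtie2 and the build hg19 are named in the submitters' processing notes. Not given in the sources used here were the version of Bowtie2, the filters and the program for binning and balancing. The deposited values are a contact signal between 1 Mb bins, balanced within each library: in 94.9% to 96.5% of measured bins the row sum differed by under 0.1% from the median row sum. Each value equals whole contacts multiplied by the factors of its 2 bins, which were estimated from low trans values. Of the nonzero values 98.1% to 99.1% came out whole to within 0.05, and nearly all others came out midway. A factor wrong by a whole divisor in all values of a bin could not be seen from whole numbers alone.

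Of 2811 bins measured in all libraries, 39 with a recovered control total under 0.25 of the median were left out. Expected signal was the product of the totals of both regions over the genome total, without the same bin. Tests had been planned for counts or, as used here, limma 3.58.1 (lmFit, eBayes; R 4.3.3) on log2 values, with all 5 libraries in 1 fit. The spread came from the KO and KD libraries (2 residual degrees of freedom), and Benjamini-Hochberg adjustment ran over all chromosome pairs, or over all bins outside the partner set (2473 and 1757). The fits were tested on simulated data. Python 3.11.15 with scipy 1.17.1, numpy 2.4.6 and pandas 2.3.3 did the rest. Replicate numbers are shared by KO and KD. Deviations from group means did not correlate between libraries of the same number (r = 0.030 over all chromosome pairs, 2 pairs of libraries). With 2 replicates per group this cannot show whether libraries of the same number were prepared together. The main fit did not use the numbers.

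The members, classes and lists were chosen with earlier results of these data known. Named in the text are the 5 highest and 5 lowest chromosome pairs and the 3 highest and 3 lowest bins in the control, calls (at most 5) or else the 3 smallest p of each comparison, and the 5 strongest bin pairs. Arms, and bins by chromosome and compartment, were added after the values were seen. Compartment A or B is the sign of the control's first eigenvector of the correlation matrix of a chromosome, oriented by the trans share of bins. Alternatives changed the totals, the scale of libraries, the bin filter, the strong bin pairs, the fit, the libraries used, the eigenvector and the width of ends.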

Additional observations from a re-analysis of the deposited data

How the results depend on the processing

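For ARID1A KO against control and CAPH2 KD against control the count of 0 chromosome pairs that passed held under each alternative other than leaving out a library. Leaving out each library in turn gave from 0 to 23 pairs, 0 to 495 large-chromosome bins and 0 to 214 small-chromosome bins for KO against control, and from 0 to 19, 0 to 137 and 0 to 122 for KD against control. All high counts came from leaving out a KO library, which leaves the spread to the KD libraries. Such fits also called most of all chromosome pairs and many of all bins, here and for KO against KD below. Their counts therefore do not single out the members. For KD against control the share called was larger over all pairs and bins than among the members. With trans totals alone 1 small-chromosome bin passed for KO against control. For KO against KD, where 3 pairs, 0 large-chromosome bins and 4 small-chromosome bins passed, the counts were 9, 1 and 46 with same-bin contacts in the totals, 5, 119 and 19 with trans totals alone, and 1, 123 and 0 in recovered contacts. Over all pairs and bins these settings called 72.3%, 2.55% and 39.5%, then 9.49%, 10.6% and 4.78%, and then 10.3%, 16.6% and 0%. Setting the library median of all pairs to 0 gave 9 pairs, against 25.7% of all pairs. Leaving out bins under 0.5 of the control median gave 7 small-chromosome bins, against 7.84% of the 1544 bins then tested. The replicate block gave 1 pair, 9 large-chromosome and 3 small-chromosome bins, against 9.49%, 3.11% and 7.63% over all pairs and bins. The pair was 2 and 19 (limma adjusted p = 0.0469), while 4 and 19 and 5 and 19 had limma adjusted p of 0.102 and 0.104. Without one library the counts ran from 0 to 19, 0 to 459 and 0 to 193.

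Several log2 differences changed sign. For KD against control the median of the 25 pairs became -0.026 with trans totals and -0.041 with library medians at 0. The pairs of 19 with 2, 4 and 5 became -0.050, -0.038 and -0.021 with trans totals and -0.082, -0.065 and -0.042 with library medians at 0, and 19 with 2 became -0.010 with the stricter bin filter. For KO against KD the median became -0.030 with same-bin contacts in the totals and -0.012 in recovered contacts, and ran from -0.016 to 0.086 without one library. Small B with large A became -0.056 with same-bin contacts and -0.090 in recovered contacts, and bins neither at ends nor at gap flanks became -0.019 in recovered contacts. For KO against control A with A became -0.019 with same-bin contacts, -0.163 in recovered contacts, -0.075 with each library's own eigenvector and -0.022 between the outer 20% of bins. B with B became -0.055 with same-bin contacts and -0.043 between the outer bins, and ends with ends of 10 Mb became 0.035. The causes were not tested. The contrast of compartments for KO against control stayed below 0, and small A with large B above 0, under each alternative run. On chromosome 5 the eigenvectors of KO replicate 1 and the control had r = 0.0078, which enters the own-eigenvector values. For KO against KD the median of all chromosome pairs was -0.13 with same-bin contacts in the totals and -0.06 without. The 1 control library and the 2 distant KO libraries limit all calls, and counting depth limits single bin pairs but not sums.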
